A study of Mus musculus with 12 samples.

Results

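Cells detect DNA outside the nucleus through a small set of sensors and a shared signalling chain, and the RNA of 9 mouse genes of this system was followed in hearts with altered Lemd2, which encodes a protein of the inner nuclear membrane. The genes were chosen by symbol from the deposited count table, which lists 24062 genes, and were Mb21d1 (newer symbol Cgas), Zbp1, Aim2, Ifi204, Tmem173 (newer symbol Sting1), Tbk1, Irf3, Trex1 and Samhd1. All 9 were found, and all 9 passed the filter on low counts in every comparison. Poly(A) RNA of whole hearts was sequenced from 12 mice, one library per mouse, in 4 groups of 3. WT mice and KI/KI mice, homozygous for a knockin of Lemd2 c.T38>G, which gives p.L13>R in the LEM domain, were 2 months old. Floxed mice, in which loxP sites flank exon 1 of Lemd2 in both copies, and cKO mice, which carry the same floxed alleles and Myh6-Cre, were taken at postnatal day 1 (P1). Both alleles came from B6C3F1 zygotes, with founders mated to C57BL/6N mice. The knockin is in every cell of the animal, whereas Myh6 drives Cre in cardiomyocytes, so that other cells of a cKO heart keep Lemd2. Cre was carried by the cKO hearts and not by the floxed hearts, so Cre and the deletion cannot be told apart here. The mutants differ in both allele and age, and these cannot be told apart either.

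cGAS, encoded by Mb21d1, binds double-stranded DNA in the cytosol and makes the messenger cGAMP, which activates STING, encoded by Tmem173, on the endoplasmic reticulum. STING recruits the kinase TBK1, which phosphorylates the transcription factor IRF3, and IRF3 switches on interferon and other genes. AIM2 and IFI204 belong to the p200 family of DNA-binding proteins, AIM2 assembling an inflammasome that activates caspase-1. ZBP1 binds nucleic acids in the Z form and can trigger necroptosis, while the nuclease TREX1 and the dNTP hydrolase SAMHD1 limit the nucleic acid that the sensors meet. Macrophages express several of these genes, and the heart has resident macrophages. The question the comparisons address is whether RNA of this system differs between hearts with altered Lemd2 and their controls.

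The genes lie apart from one another in GRCm38, the build to which mm10 corresponds. Aim2 (ENSMUSG00000037860.15, chr1:173350879-173466040, plus strand) and Ifi204 (ENSMUSG00000073489.6, chr1:173747293-173766943, minus strand) share the p200 cluster of chromosome 1. Mb21d1 (ENSMUSG00000032344.17, chr9:78430526-78443237) and Trex1 (ENSMUSG00000049734.9, chr9:109057933-109059734) are on chromosome 9, Zbp1 (ENSMUSG00000027514.14, chr2:173206612-173218923) and Samhd1 (ENSMUSG00000027639.16, chr2:157097533-157135265) on chromosome 2, and all of these are on the minus strand. Tbk1 (ENSMUSG00000020115.3, chr10:121546455-121586787, minus strand) and Irf3 (ENSMUSG00000003184.15, chr7:44997648-45002848, plus strand) complete the set together with Tmem173 (ENSMUSG00000024349.10). Shared sequence bears on the counts of Trex1 and Ifi204. All of the exon bases of Trex1 also belong to exons of Atrip on the same strand, and 93.4% of the 75-base windows of Trex1 transcripts occur in Atrip transcripts, so the Trex1 count is uncertain. Of the Ifi204 windows, 13.2% also occur in other genes, mainly its neighbour Ifi211 (11.3%).

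Promoter sequence from RefSeq (GRCm38.p6) was found for Mb21d1, Aim2, Tbk1, Irf3, Trex1 and Samhd1 of the 9 genes, and not for Zbp1, Ifi204 and Tmem173. Bases upstream of the start are shown for Aim2, the gene of the 9 with the smallest adjusted p, for Mb21d1, the sensor that gives the pathway its name, and for Samhd1, which carried the only motif match. Each runs 5′ to 3′ on the gene's strand, begins 250 bases before the annotated RefSeq start and stops before the first base of any annotated exon. The Aim2 stretch is chr1:173420354-173420570 on the plus strand. It lies inside the GENCODE interval given above for Aim2, so its RefSeq start is not the first base of that interval. The Mb21d1 stretch is chr9:78443238-78443487 and the Samhd1 stretch chr2:157135266-157135346, both on the minus strand. Capitals in the Samhd1 stretch mark the match.
Aim2: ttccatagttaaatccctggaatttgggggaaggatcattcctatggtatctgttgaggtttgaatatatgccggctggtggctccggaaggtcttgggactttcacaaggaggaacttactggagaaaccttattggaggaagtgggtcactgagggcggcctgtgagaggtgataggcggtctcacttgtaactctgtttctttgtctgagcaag
Mb21d1: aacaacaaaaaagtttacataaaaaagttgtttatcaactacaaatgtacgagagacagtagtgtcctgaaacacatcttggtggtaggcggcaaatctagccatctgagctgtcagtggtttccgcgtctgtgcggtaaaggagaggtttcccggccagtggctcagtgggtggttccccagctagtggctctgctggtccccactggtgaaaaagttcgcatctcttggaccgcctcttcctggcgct
Samhd1: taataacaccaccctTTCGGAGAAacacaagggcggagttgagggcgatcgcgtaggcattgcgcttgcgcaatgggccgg

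The searched motifs were the core of the interferon-stimulated response element, written GAAA, NN and GAAA in a row, and the gamma-activated sequence TTCNNNGAA, both on either strand of the 250 upstream bases. The first occurred in 978 of 32851 promoters (2.98%) and in none of the 6 genes found. The second occurred in 2306 promoters (7.02%) and, among the 6 genes, only in Samhd1, at positions -235 to -227 from the start. These are matches of letters in one window and carry no information on binding.

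Library totals ran from 37063669 to 44789753 counts. Levels are given in CPM, read counts scaled to library sizes that were TMM-normalized over all 12 hearts. The floor was set at 3 counts per library, or 0.0599 to 0.0965 CPM, and covers counting error only. Replicates differed by more than sampling noise in every pair. WT hearts held 32, 34.8 and 32.9 CPM of Lemd2 itself, KI/KI hearts 25.6, 25.2 and 24.8, floxed hearts 24.3, 25 and 25.4, and cKO hearts 6.59, 13.1 and 11.3. Mutants lay below controls in both models. Its log2 fold change was -0.39 (SE 0.06, adjusted p = 0.186 by edgeR) in KI/KI and -1.27 (SE 0.23, adjusted p = 0.0159) in cKO hearts. One cKO heart, replicate 4, stood apart, with Y-linked transcripts at a mean log2 CPM of -3.92 where the other 11 were between 5.56 and 6.25, and Xist at 612 CPM where the others were at 2.02 or less. The sample titles give no sex, and by these genes replicate 4 read as female and the other 11 hearts as male. Cardiomyocyte markers were abundant in every library (Myh6 from 12200 to 43600 CPM), and the lung marker Sftpc was at 0.338 CPM or less. The summed level of 10 lung markers was nonetheless uneven, at 251 and 419 CPM in floxed replicates 1 and 2, 176 in cKO replicate 4, 127 in WT replicate 3 and 42.5 in KI/KI replicate 4, and between 0.824 and 23.4 CPM in the other 7 libraries. The part of this signal in the results was not tested, and the cKO calls that were lost without single libraries are given with those genes. The lists used were chosen with earlier results of these data known.

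Levels between genes were compared per kilobase of exon. The exon lengths came from GENCODE M21, whereas the paper took its mm10 gene annotation from Illumina iGenomes, so lengths and counts need not match. The place of Trex1 is uncertain because its exons are shared with Atrip. In WT hearts Tbk1 was the highest at 9.35 ± 0.629 CPM per kb (SD, n = 3), followed by Trex1 at 9.12 ± 0.576 and Irf3 at 8.35 ± 0.386, and neighbours in this order overlapped in range. Samhd1 (5.75 ± 0.439) and Ifi204 (4.4 ± 1.74) came next and also overlapped each other. Tmem173 was at 2.59 ± 0.178, Aim2 at 1.24 ± 0.195, Mb21d1 at 0.556 ± 0.0516 and Zbp1 at 0.347 ± 0.151 CPM per kb, with no overlap between neighbours from Ifi204 downward. The kinase and the transcription factor at the end of the chain were thus represented by more RNA per length than the sensors and STING in adult hearts. In floxed P1 hearts Tbk1 (10.2 ± 0.609 CPM per kb) and Irf3 (9.09 ± 0.437) again led, Ifi204 stood at 0.774 ± 0.083, and Zbp1 was the lowest at 0.134 ± 0.0305. Only Mb21d1 (1.07 ± 0.517) and Aim2 (0.94 ± 0.0461) overlapped as neighbours in that order. No test was made between the ages.

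**Figure D1:**
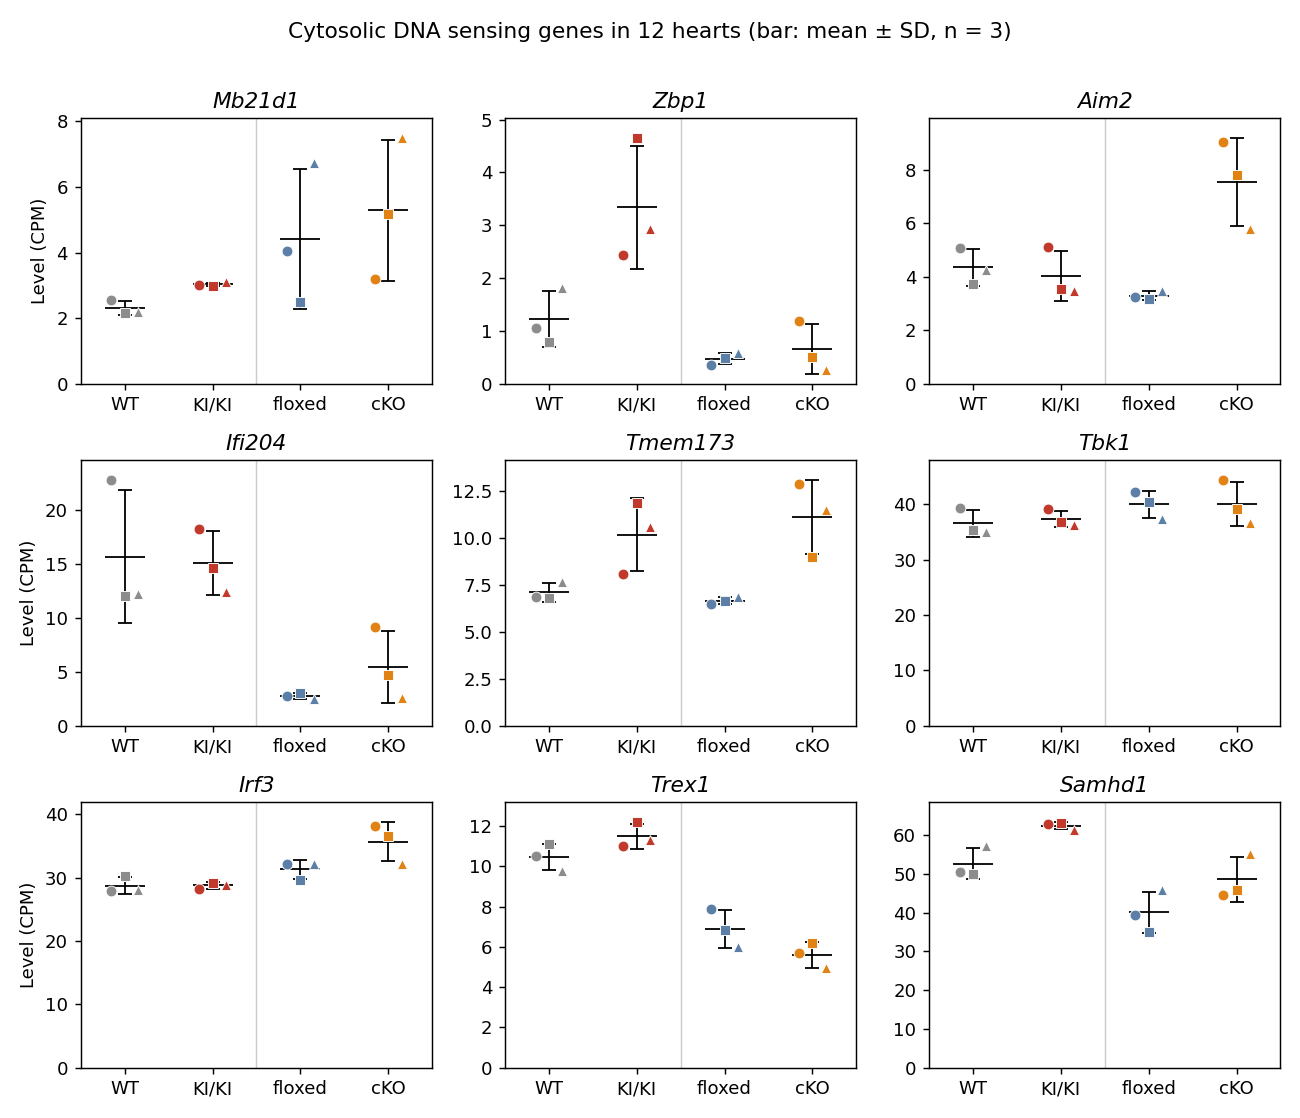
Level of each of the 9 genes in CPM (vertical axis, from 0) in every heart, by group on the horizontal axis; symbols are single hearts (circle, square and triangle in order of replicate number), the wide bar is the mean and the whiskers the SD. Aim2 and Tmem173 in the cKO hearts lie above all floxed hearts, Zbp1 in the KI/KI hearts lies above all WT hearts, and Tbk1 stays between 35 and 44.4 CPM throughout.

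In KI/KI hearts the RNA of 4 of the 9 genes, Mb21d1, Zbp1, Tmem173 and Samhd1, lay above the range of the WT hearts, where 11.4% of the 14592 tested genes did so, and none lay below it. The same 4 genes had an unadjusted p under 0.05 with a higher level, against 8.77% of tested genes. By edgeR's quasi-likelihood test none of the 9 passed an adjusted p of 0.05, and over all tested genes the percentage was also 0, with 2331 genes at an unadjusted p under 0.05. DESeq2 called 518 genes and limma-voom 0. Among the 9, DESeq2 called Zbp1 alone as higher, where it called 2.1% of its tested genes higher. The median log2 fold change over the 9 was 0.14, beside 0 over all tested genes.

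Among the sensors, Zbp1 differed most. WT hearts held 1.06, 0.794 and 1.82 CPM of it, and KI/KI hearts 2.44, 4.65 and 2.92. Every KI/KI heart was above every WT heart, and replicate 5 was the highest. The ratio of KI/KI to WT was 2.71, a log2 fold change of 1.44 (SE 0.38, 95% interval 0.53 to 2.35), with an adjusted p of 0.23 by edgeR and of 0.0194 by DESeq2. Mb21d1 stood at 2.54, 2.17 and 2.18 CPM among the WT and 3.01, 2.98 and 3.09 among the KI/KI hearts. The KI/KI hearts were close together and above the WT hearts, with a log2 fold change of 0.40 (SE 0.15, interval 0.05 to 0.75, edgeR adjusted p = 0.279). Between 71 and 123 counts stood behind each of these Mb21d1 levels.

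Aim2 and Ifi204 did not separate the adult groups. Aim2 levels were 5.08, 3.72 and 4.24 CPM for WT and 5.09, 3.53 and 3.46 for KI/KI hearts, and the groups overlapped (log2 fold change -0.11, interval -0.59 to 0.37). Ifi204 levels were 22.8, 12 and 12.2 CPM for WT and 18.3, 14.6 and 12.4 for KI/KI hearts. One WT heart was the highest of the 6, and without it the log2 fold change of Ifi204 went from -0.04 to 0.32.

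Tmem173, the adaptor at the centre of the pathway, measured 6.85, 6.81 and 7.67 CPM for WT and 8.07, 11.9 and 10.6 for KI/KI hearts. The ranges did not meet, and the log2 fold change was 0.52 (SE 0.16, interval 0.14 to 0.90, edgeR adjusted p = 0.246). Downstream of it, Tbk1 (39.4, 35.3 and 35 CPM for WT, 39.1, 36.8 and 36.2 for KI/KI hearts) and Irf3 (27.9, 30.3 and 28 CPM for WT, 28.2, 29.2 and 28.9 for KI/KI hearts) overlapped between the groups. Their 95% intervals of the log2 fold change were narrow, from -0.12 to 0.19 for Tbk1 and from -0.14 to 0.15 for Irf3. These intervals bound the difference in their RNA and do not reach the activity of the proteins, which depends on phosphorylation.

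Of the genes that limit self nucleic acid, Samhd1 measured 50.5, 50 and 57.2 CPM for WT and 62.8, 63.1 and 61.4 for KI/KI hearts, with no overlap (log2 fold change 0.25, SE 0.07, edgeR adjusted p = 0.24). Trex1 measured 10.5, 11.1 and 9.79 CPM for WT and 11, 12.2 and 11.3 for KI/KI hearts, which overlapped (log2 fold change 0.14, interval -0.07 to 0.35). The Atrip row, with which it shares its exons, had a log2 fold change of -0.02 (SE 0.10).

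Marker levels of several cell types differed between the adult groups, and no marker was called. All 10 fibroblast markers had a positive log2 fold change, with a median of 0.50. Their sums were 2250 to 2680 CPM in WT hearts and 2700, 5080 and 3190 in KI/KI replicates 4, 5 and 6. All 10 cardiomyocyte markers had a negative log2 fold change, with a median of -0.23. Their sums were 96300 to 110000 CPM in WT hearts and 98100, 73700 and 89300 in KI/KI replicates 4, 5 and 6. Replicate 5 was the extreme in both lists. Macrophage markers had a median of 0.39. The summed level of 21 macrophage markers ran from 428 to 601 CPM in WT and from 641 to 739 in KI/KI hearts. Of the 21, 10 had an unadjusted p under 0.05 with a higher level, against 8.77% of all tested genes, though none was called. No marker of the list was at 0 in any adult heart. Of the defining markers, Csf1r was at 46.5 to 77.7 CPM in WT and 70.7 to 74.7 in KI/KI hearts, and Adgre1 (Emr1 in the table) at 8.76 to 19.1 and 19 to 21. The mean macrophage marker level was also used as a covariate. With it the log2 fold change of Zbp1 was 0.29 (SE 0.33) and that of Tmem173 0.23 (SE 0.24). That of Samhd1 was 0.10 (SE 0.10) and that of Mb21d1 0.36 (SE 0.25). The covariate ran from 3.46 to 3.98 log2 CPM in WT and from 4.12 to 4.36 in KI/KI hearts. It separated the groups, so this fit cannot tell genotype and marker level apart. The part of macrophages or fibroblasts in these results was not tested, and in bulk RNA more cells of a type and more RNA per cell cannot be told apart.

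In P1 cKO hearts Aim2 and Tmem173 rose, so that 2 of the 9 genes were called higher where edgeR called 9.15% of 15317 tested genes higher, and none was called lower where 7.31% were. In 3 of the 9, Aim2, Tmem173 and Irf3, every cKO heart lay above every floxed heart, against 19.9% of tested genes. The median log2 fold change of the 9 was 0.27, beside 0 over all tested genes.

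Aim2 was at 3.23, 3.17 and 3.48 CPM in the floxed hearts and at 9.02, 7.81 and 5.78 in the cKO hearts. The floxed hearts were tightly grouped and the lowest cKO heart was above all of them. The ratio was 2.3, a log2 fold change of 1.20 (SE 0.20, 95% interval 0.72 to 1.68, edgeR adjusted p = 0.0139, DESeq2 adjusted p = 5.06e-06). Without the cKO heart that lacked Y-linked transcripts the log2 fold change was 1.03 (adjusted p = 0.0284 by edgeR). The call was lost without floxed replicate 1 (adjusted p = 0.0783), floxed replicate 2 (0.0585) or cKO replicate 5 (0.0628), with log2 fold changes of 1.17 or 1.18.

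The other sensors gave wider spreads in the P1 hearts. Ifi204 was at 2.78, 3.04 and 2.45 CPM in floxed and at 9.12, 4.69 and 2.55 in cKO hearts, so that one cKO heart lay among the floxed hearts (log2 fold change 1.00, SE 0.45, edgeR adjusted p = 0.164). The value rested on single libraries, at 0.38 (adjusted p = 0.404) without cKO replicate 4 and 1.33 (adjusted p = 0.0228) without cKO replicate 6. Zbp1 was at 0.361, 0.478 and 0.576 CPM in floxed and at 1.18, 0.5 and 0.267 in cKO hearts, from 11 to 59 counts a library, and its log2 fold change went from 0.48 to -0.30 without cKO replicate 4. Mb21d1 varied widely within both groups, at 4.04, 2.5 and 6.72 CPM in floxed and 3.19, 5.17 and 7.49 in cKO hearts. Its 95% interval, -0.73 to 1.23, covers changes in either direction.

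Tmem173 was at 6.5, 6.63 and 6.87 CPM in the floxed hearts and at 12.9, 9.02 and 11.5 in the cKO hearts. All cKO hearts were above all floxed hearts, at a ratio of 1.68 and a log2 fold change of 0.75 (SE 0.16, interval 0.36 to 1.13, edgeR adjusted p = 0.0264). Without cKO replicate 4 the log2 fold change was 0.61 and its adjusted p 0.0516, and it was also not called without floxed replicate 1 (0.116), 2 (0.0851) or 3 (0.0628). Tbk1 was at 42.2, 40.4 and 37.4 CPM in floxed and at 44.4, 39.2 and 36.6 in cKO hearts, with a log2 fold change of 0.00 (interval -0.26 to 0.27). Irf3, at 32.2, 29.6 and 32.1 CPM in floxed and 38.2, 36.6 and 32.2 in cKO hearts, separated the groups by a narrow margin and was not called (log2 fold change 0.19, SE 0.10, edgeR adjusted p = 0.234).

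Samhd1 was at 39.5, 35.1 and 45.7 CPM in floxed and at 44.5, 45.9 and 55.2 in cKO hearts, with overlapping ranges (log2 fold change 0.27, SE 0.12, edgeR adjusted p = 0.157). Trex1, at 7.88, 6.82 and 5.97 CPM in floxed and 5.71, 6.19 and 4.93 in cKO hearts, was the one gene of the 9 with a negative log2 fold change, -0.30 (SE 0.17, interval -0.69 to 0.10). Atrip was at 0.05 (SE 0.11) on the same scale.

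**Figure D2:**
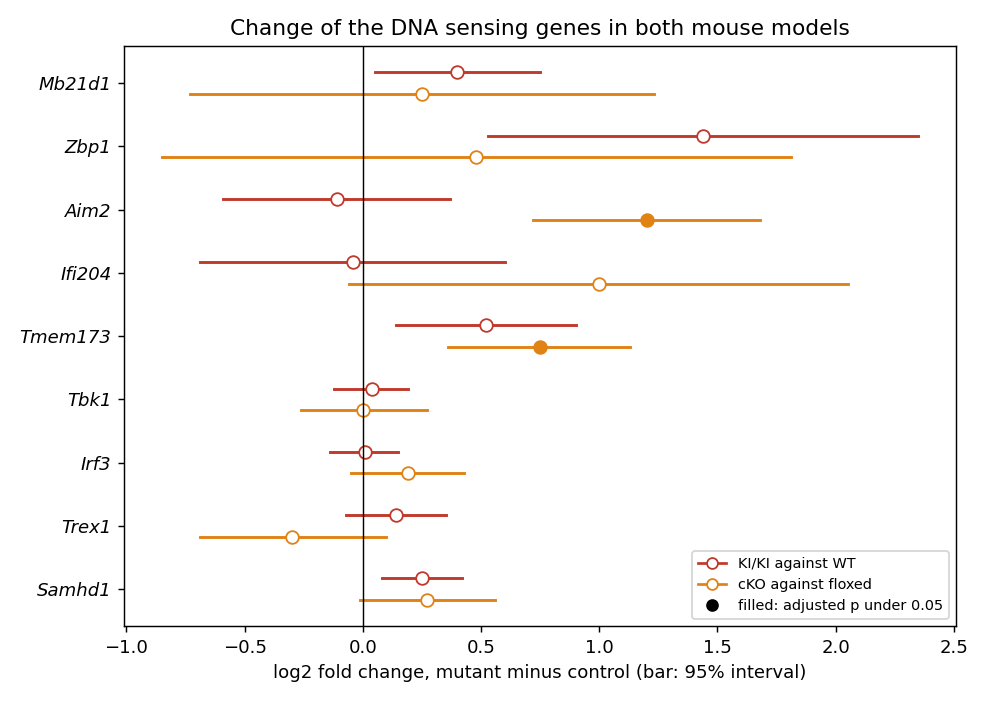
The log2 fold change of each gene, mutant minus control, on the horizontal axis for KI/KI against WT (red) and cKO against floxed (orange); bars are 95% intervals and filled points passed an adjusted p of 0.05 by edgeR. Aim2 (1.20) and Tmem173 (0.75) in cKO hearts are the only filled points, and Tbk1 lies at 0.04 and 0.00.

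Macrophage markers were also higher in the cKO hearts. Their summed level was 240, 238 and 203 CPM in the floxed hearts and 448, 312 and 245 in the cKO hearts. Of 20 tested markers 8 were called higher and none lower, against 9.15% and 7.31% of all tested genes. Adgre1 was at 4.8 to 6.2 CPM in floxed hearts and at 11.3, 10.4 and 14 in cKO replicates 4, 5 and 6. Csf1r was at 23.4 to 26.3 CPM in floxed hearts and at 36.7, 35.3 and 27.5 in the same cKO hearts. Csf1r thus had the order of the marker sum, whereas Adgre1 was highest in replicate 6, where the sum was lowest. Ifi204, Zbp1 and Aim2 followed the order of the marker sum among the cKO hearts, while Tmem173 was lowest in replicate 5. Tbk1 (44.4, 39.2 and 36.6 CPM) and Irf3 (38.2, 36.6 and 32.2), neither of them called, had that order too. Mb21d1 and Samhd1 had the reverse order, so the order of 3 hearts does not set the sensors apart. With the mean macrophage marker level as a covariate neither called gene passed. Aim2 was then at a log2 fold change of 0.73 (SE 0.22, edgeR adjusted p = 0.0808) and Tmem173 at 0.54 (SE 0.23, adjusted p = 0.155). Ifi204 went to -0.48 (SE 0.29, adjusted p = 0.29). The covariate was 2.73, 2.62 and 2.57 log2 CPM in floxed and 3.49, 3.06 and 2.82 in cKO hearts. It separated the groups, so this fit cannot tell genotype and marker level apart. Markers of other cells changed too. Called higher were 4 of 10 fibroblast markers and 3 of 11 proliferation markers, against 9.15% of all tested genes. Called lower were 4 of 10 cardiomyocyte markers, against 7.31% of all tested genes. The part of any of these cell types in the results was not tested.

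**Figure D3:**
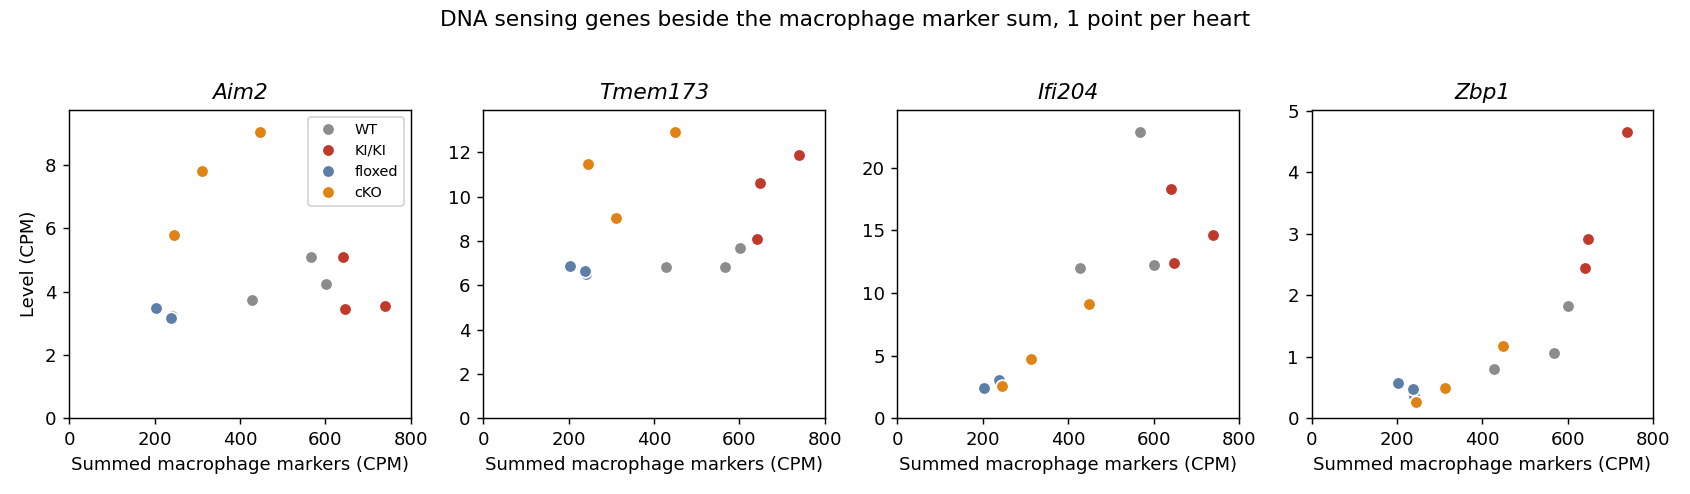
Level of Aim2, Tmem173, Ifi204 and Zbp1 in CPM (vertical axes, from 0) against the summed CPM of 21 macrophage markers (horizontal axis), 1 point per heart and coloured by group. At marker sums of 245 to 448 CPM the cKO hearts hold 5.78 to 9.02 CPM of Aim2, and at sums of 428 to 739 CPM the WT and KI/KI hearts hold 3.46 to 5.09; in the 4 hearts with sums of 203 to 245 CPM, Ifi204 is at 2.45 to 3.04 CPM and Zbp1 at 0.267 to 0.576.

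The change of Aim2 differed between the models. Its log2 fold change in cKO against floxed exceeded that in KI/KI against WT by 1.31 (SE 0.29, interval 0.67 to 1.95, adjusted p = 0.0444 by edgeR's interaction test over all 12 hearts), and it was the only one of the 9 called, where 2.51% of 15729 genes were. With limma-voom the adjusted p was 0.0556, and when single hearts were left out the call held in 3 of 12 fits, at differences of 1.16 to 1.52 over all of them. Without cKO replicate 4 the difference was 1.16 (edgeR adjusted p = 0.0671). For Tmem173 the difference was 0.23 (interval -0.27 to 0.73), an interval that holds both a larger and a smaller change in cKO than in KI/KI hearts. Trex1 differed by -0.43 (interval -0.83 to -0.03), with an adjusted p of 0.216 by edgeR. Zbp1 differed by -0.96 (interval -2.51 to 0.59, adjusted p = 0.476).

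The genes whose 12 levels, centred within each age, were nearest to Aim2 by root mean square difference of log2 CPM were Ogn (0.132), Ifi30 (0.173) and Plod2 (0.174), against a median of 0.51 over 14243 genes. Ogn and Plod2 are known as genes of matrix and collagen-modifying proteins, and Ifi30 encodes a lysosomal thiol reductase. The nearest to Tmem173 were B2m (0.105), Npdc1 (0.124) and Tmem106a (0.126), against a median of 0.403, and B2m encodes the light chain of MHC class I.

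The outputs and neighbours of the pathway were followed by lists of genes. Among 34 interferon-stimulated genes of the KI/KI hearts, 29 had an unadjusted p under 0.05 with a higher level (8.77% of all tested genes) and a median log2 fold change of 0.69, yet none was called by edgeR. Ifit1, at 9.29, 8.92 and 10.5 CPM for WT and 15.9, 21.7 and 19.5 for KI/KI hearts, was at 0.99 (SE 0.14), and Herc6 at 0.64 (SE 0.09), both with an adjusted p of 0.186. In cKO hearts 3 of 33 were called higher, a share near the 9.15% of all tested genes, with a median of 0.13. Those were Ifit2 (20.1, 20.2 and 23.5 CPM in floxed, 38.5, 38.9 and 46.8 in cKO hearts, log2 fold change 0.96, SE 0.11), Bst2 (0.91, SE 0.16), which tethers virus particles, and Ifitm3 (0.36, SE 0.10), which blocks virus entry. Without cKO replicate 4 it was 2 higher and 1 lower, where 1008 of 15528 genes rose and 834 fell.

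RNA sensing by RIG-I-like receptors runs beside the DNA pathway and meets it at TBK1. Of 16 genes for RIG-I-like receptors and RNA sensing, 14 had a higher level at an unadjusted p under 0.05 in KI/KI hearts, against 8.77% of all tested genes (9 without KI/KI replicate 5, where 800 of 14753 genes passed that p on the higher side). The list had a median log2 fold change of 0.66 and Oas2 at 1.11 (SE 0.14, edgeR adjusted p = 0.186). In cKO hearts 3 of 15 fell, against 7.31% of all tested genes, and none rose. Without cKO replicate 4 these counts were again 3 and 0, where 834 of 15528 genes fell and 1008 rose. Among the 3 that fell with all hearts, Ddx60 was at 9.39, 7.61 and 6.76 CPM in floxed and 3.07, 3 and 3.4 in cKO hearts. Its log2 fold change was -1.33 (SE 0.17, edgeR adjusted p = 0.00766). Rnf135, a ubiquitin ligase for RIG-I, was at -0.66 (SE 0.12), and neither gene had overlapping groups. The difference between the models was called for 3 of the 16 genes of the list, all with the lower log2 fold change in cKO hearts. Of all 15729 tested genes, 205 were called in that direction.

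Among 28 tested adaptors, kinases and regulators of STING, 4 rose and none fell in cKO hearts, against 9.15% and 7.31% of all tested genes. Without cKO replicate 4 the counts were 3 and 0, where 1008 of 15528 genes rose and 834 fell. They were Traf3 (log2 fold change 0.44, SE 0.09), Nlrc3 (1.25, SE 0.28), Surf4 (0.56, SE 0.13) and Rnf26 (0.57, SE 0.14). NLRC3 and SURF4 are known to hold STING signalling back, the latter by returning STING to the endoplasmic reticulum. Nlrc3 was at 2.89, 2.76 and 3.54 CPM in floxed and 4.35, 8.31 and 9.38 in cKO hearts, with no overlap. For KI/KI against WT, 5 of 28 were higher, against 8.77% of all tested genes, and 1 lower at an unadjusted p under 0.05. Without KI/KI replicate 5 these counts were 2 and 1, where 800 and 687 of 14753 genes passed that p. With all hearts Nlrc3 was at 2.34 (SE 0.41) and Irf7, the interferon-inducible relative of Irf3, at 1.17 (SE 0.17), each with an edgeR adjusted p of 0.186.

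Of 16 tested p200 and further sensors in cKO hearts, Hnrnpa2b1 rose (0.42, SE 0.09) and Dhx36 fell (-0.34, SE 0.08), where 9.15% of all tested genes rose and 7.31% fell. Without cKO replicate 4 the counts were 0 and 1, beside 1008 and 834 of 15528 genes. Among 19 tested in KI/KI hearts 3 were higher at an unadjusted p under 0.05 (8.77% of all tested genes), with Mndal at 0.46 (SE 0.10) and Pyhin1 at 1.68 (SE 0.47) on the log2 scale. The next list held genes for cGAMP breakdown and transport and for tethering cGAS to chromatin. Among 16 tested in cKO hearts 1 rose and 1 fell, beside 9.15% and 7.31% of all tested genes. Lrrc8c, a subunit of a channel that passes cGAMP, rose (0.57, SE 0.13) and Slc46a3 fell (-0.71, SE 0.18). Without cKO replicate 4 the counts were 4 higher and 0 lower of 18, where 1008 of 15528 genes rose and 834 fell. The median of this list was -0.07 in KI/KI hearts. Of 17 tested, 1 was higher and 1 lower at an unadjusted p under 0.05, where 1280 and 1051 of 14592 genes were. Without KI/KI replicate 5 these counts were 0 and 1, where 800 and 687 of 14753 genes were. Enpp1, which breaks down cGAMP, was at 0.57 (SE 0.22) and Abcc1, a cGAMP exporter, at -0.21 (SE 0.06).

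Of 23 nucleases and nucleotide enzymes 2 rose in cKO hearts, a share near that of all tested genes (9.15%), Rnaseh2c (0.52, SE 0.11), a subunit of RNase H2, and Pld3 (0.39, SE 0.10), a lysosomal exonuclease. The counts were the same without cKO replicate 4, where 1008 of 15528 genes rose and 834 fell. Of 24 tested in KI/KI hearts 4 were higher at an unadjusted p under 0.05 (8.77% of all tested genes), with Rad50 at 0.35 (SE 0.08) and Dnase1l1 at 0.26 (SE 0.09). The count was 1 without KI/KI replicate 5, where 800 of 14753 genes were higher at that p. Caspase-1, which AIM2 inflammasomes activate, is encoded by Casp1, which was at 2.96, 2.96 and 2.83 CPM for WT and 4.95, 5.44 and 4.95 for KI/KI hearts (log2 fold change 0.81, SE 0.12, edgeR adjusted p = 0.186), among 6 of 17 inflammasome and necroptosis genes higher at an unadjusted p under 0.05, against 8.77% of all tested genes. In cKO hearts 2 of 19 rose, a share near the 9.15% of all tested genes, the cytokine gene Il1b (1.58, SE 0.42) and the gene of its receptor antagonist, Il1rn (2.48, SE 0.53). The count was 0 without cKO replicate 4, where 1008 of 15528 genes rose. Il1b and Il1rn were both low, Il1b at 0.128 to 0.261 CPM in floxed and 0.417 to 0.759 in cKO hearts.

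Of 15 genes of the endosomal Toll-like receptors, which sense nucleic acids in endosomes, 3 rose in cKO hearts, against 9.15% of all tested genes. They were Ctsb (0.51, SE 0.07), Slc15a3 (1.39, SE 0.21) and Tlr13 (1.33, SE 0.33). The count was 2 without cKO replicate 4, where 1008 of 15528 genes rose. The KI/KI hearts had 6 of 15 higher at an unadjusted p under 0.05, against the same 8.77%, with Tlr13 at 1.03 (SE 0.24) and Ctss at 0.66 (SE 0.16). No interferon receptor or signalling gene was called among 13 tested in cKO hearts. Ifnar2 (0.32, SE 0.09, edgeR adjusted p = 0.0634) and Ifngr1 (0.32, SE 0.11) were nearest. Of the 13, 2 were higher at an unadjusted p under 0.05, where 2814 of all 15317 tested genes were. In KI/KI hearts 4 of 13 were higher at that p (8.77% of all tested genes), with Usp18 at 0.85 (SE 0.17) and Irf9 at 0.41 (SE 0.10). The 10 interferon genes themselves had at most 2 counts in any library, and 8 of them were at 0 in all 12. Of 8 interferon regulatory factors other than Irf3 none was called in cKO hearts. There 2 were higher at an unadjusted p under 0.05, beside 2814 of all 15317 tested genes, among them Irf5 (0.62, SE 0.24). In KI/KI hearts 4 of 8 were higher at that p (8.77% of all tested genes), Irf7 and Irf9 with the smallest p. The lists overlap. Irf1, Irf5 and Irf7 also stood in the list of STING adaptors, kinases and regulators, and Irf9 in that of interferon receptors and signalling. In the KI/KI counts Irf5, Irf7 and Irf9 were therefore counted more than once.

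**Figure D4:**
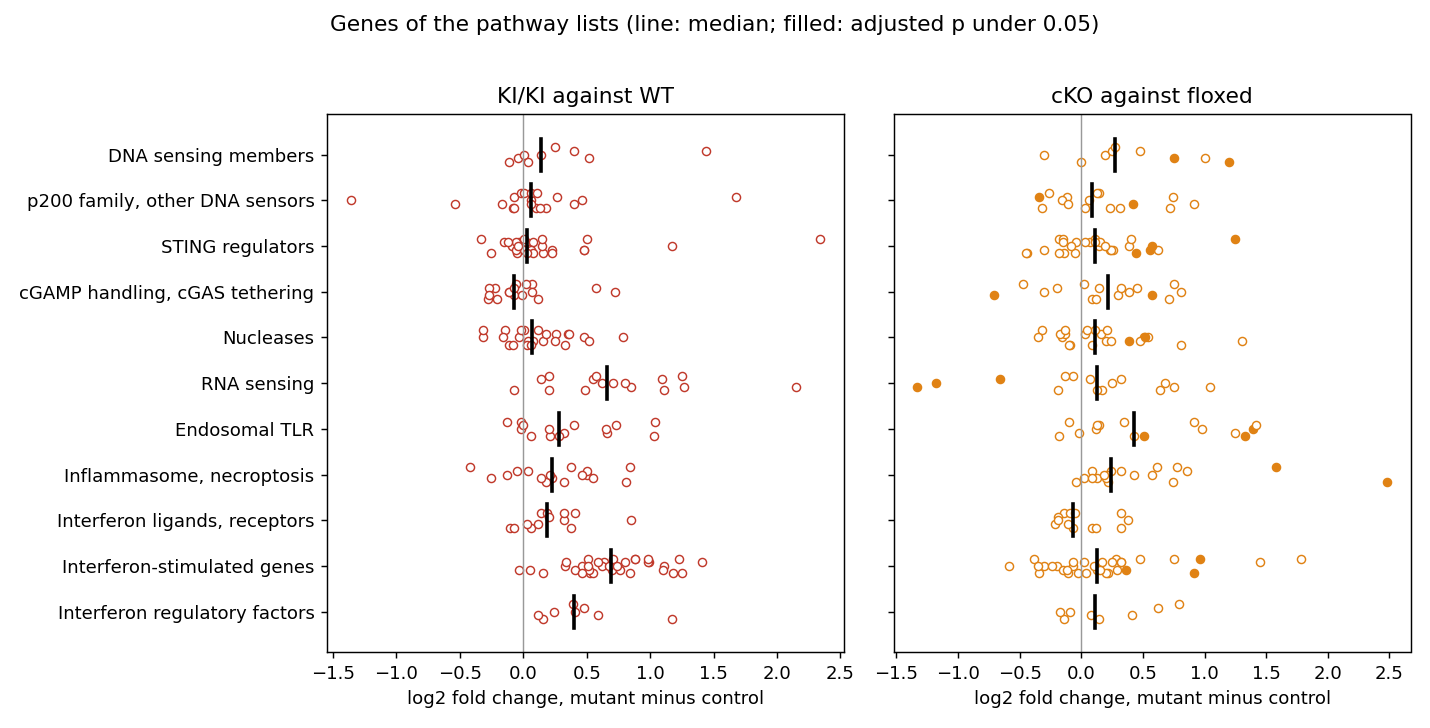
The log2 fold change of every tested gene (points, mutant minus control, horizontal axis) in the 9 DNA sensing genes and the pathway lists around them (rows), for KI/KI against WT on the left and cKO against floxed on the right; black lines are medians and filled points passed an adjusted p of 0.05 by edgeR. No point is filled in KI/KI hearts, where the medians of RNA sensing (0.66) and interferon-stimulated genes (0.69) lie farthest to the right; in cKO hearts those medians are both 0.13 and 3 RNA sensing genes are filled on the left.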

How the data were processed

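Whole-heart poly(A) RNA of 12 mice was prepared with a KAPA mRNA HyperPrep kit and sequenced as single-end reads by the authors. Per the labels, the submitters' processing notes name Trim Galore, Bowtie2 2.3.4.3, STAR 2.7.2b, SAMtools 1.9, HTSeq and DESeq2 with mm10, and the deposited values are whole-number read counts per gene symbol, without normalization. The strand setting of the counting is not given in the sources used here.

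The tests used edgeR 4.0.16 under R 4.3.3 (TMM, filterByExpr, robust quasi-likelihood test, Benjamini-Hochberg over all tested genes, called at an adjusted p under 0.05), each comparison on its own 6 libraries and the difference between the models on all 12. The SE is the log2 fold change divided by the root of the F statistic. Alternatives were DESeq2 1.42.0, limma-voom (limma 3.58.1), RLE size factors, other filters, a non-robust fit, all libraries in one fit, covariates and each library left out. Replicates were separate mice. Library totals were 37063669 to 44789753 counts. Annotation was GENCODE M21 on GRCm38, and older symbols were matched through RefSeq. The scripts were tested on simulated data. The genes, lists and tests were chosen with earlier results of these data known.

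Named genes are the 9 members, Lemd2, up to 4 called genes per list with the smallest adjusted p (where none was called, the 2 with the smallest p), and the 3 genes nearest to each called member. Atrip, the marker genes and the genes of the sex check were named in addition. A few of the genes that this rule names are not reported here.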

Additional observations from a re-analysis of the deposited data

Results flagged for a closer look

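The change of Aim2 differed between the models by 1.31 on the log2 scale (SE 0.29, edgeR adjusted p = 0.0444), which is the value that drew attention, since it came from a test of the difference itself. Aim2 was higher in 3 of 3 cKO hearts than in every floxed heart, and the KI/KI and WT hearts overlapped. The models differ in allele and in age, which cannot be told apart.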

How the results depend on the processing

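No paired analysis was possible because the groups compared share no replicate numbers. In KI/KI against WT the number of the 9 genes called was 1 with DESeq2 and 0 under every other alternative. In cKO against floxed it was 1 with a fold change above 2 also required, 0 with the macrophage covariate, 1 with the Y-linked covariate and from 0 to 3 with each library left out, and 2 under the other alternatives. For the difference between the models it was 0 with limma-voom and from 0 to 1 with each library left out, a set of fits chosen after seeing the data, as were the pathway counts without single libraries.

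Sign changes touched only values that were not called. In KI/KI hearts Irf3 was at 0.00 with DESeq2 and Ifi204 at 0.01 with limma-voom, and with each library left out Aim2 ran from -0.31 to 0.01, Ifi204 from -0.20 to 0.32 and Irf3 from -0.02 to 0.04. In cKO hearts Tbk1 was at -0.01 with at least 10 counts required, -0.27 with the macrophage covariate and -0.11 with the Y-linked covariate, Zbp1 at -1.18 and -0.37 with these covariates, and Ifi204 at -0.48 and Irf3 at -0.02 with the former. With each library left out there, Mb21d1 ran from -0.08 to 0.67, Zbp1 from -0.30 to 0.84 and Tbk1 from -0.09 to 0.07. For the difference between the models Mb21d1 ran from -0.47 to 0.29, Tbk1 from -0.11 to 0.04 and Samhd1 from -0.07 to 0.13. The cause was not tested. With 3 hearts a group, and 11 to 59 counts of Zbp1 per P1 library, changes of low genes are imprecise.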
